A study of Mus musculus with 2 samples.

Results

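*Serinc3* and *Nutf2* were followed in mouse *MLL-AF9* acute myeloid leukemia by single-cell RNA-seq as 2 of the 27998 genes counted. They were selected on their summed UMI counts, as 2 of the largest differences between the libraries: among the 2737 robust genes, those with a UMI in at least 10% of the kept cells, *Serinc3* ranked 1 and *Nutf2* ranked 4 by the ratio of the library whose label is KO to the one whose label is WT, called here the labelled-KO and labelled-WT libraries. A UMI is a unique molecular identifier and stands for 1 captured transcript. That ratio is therefore given as a description only, and the question put to the data was how it is spread over cells: through every cell state, or through some of them.

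The leukemias were made from lineage-depleted bone marrow of *Kat2a* Flox/Flox mice, transduced with a retrovirus carrying the *MLL-AF9* fusion and a YFP reporter, and grown in lethally irradiated recipients. All donors carried the floxed alleles and all received pIpC, which switches on *Mx1-Cre* in interferon-responsive cells, 4 to 6 weeks before marrow was taken; KO donors were *Mx1-Cre* +/- and WT donors *Mx1-Cre* -/-. Terminal marrow of 5 WT and 4 KO leukemias was thawed and pooled by genotype, and live YFP-positive single cells were sorted for 1 10x Genomics library per genotype. Individual leukemias carry no label within a pool, so there is no replicate, no test was made, and every interval below is a 95% interval for counting error alone.

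Of the deposited cells, those with at least 500 detected genes entered the analysis, 3866 of 4069 in the labelled-WT library and 3545 of 4240 in the labelled-KO library. Kept cells held 11669427 and 7920256 UMIs, with a median of 2588.5 and 1884 UMIs per cell, and the libraries shared 28 barcode sequences. UMIs of the targeted gene ran against the labels: *Kat2a* (chr11:100704746-100712465, GRCm38, minus strand) had 142 UMIs in the labelled-WT library and 759 in the labelled-KO library, 12.2 against 95.8 CPM (UMIs per 1e+06 UMIs of the library). The excised allele still transcribes the last exon, where 3′ reads fall, so these UMIs do not tell an excised from an intact transcript and are no check of the excision. The libraries are therefore named only as labelled. The log2 ratio of CPM had a median of 0.074 over the robust genes, of which 60.2% were higher in the labelled-KO library.

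*Serinc3* encodes a multi-pass membrane protein of the serine incorporator family, whose members were named for a proposed role in bringing serine into membrane lipids and are best known for entering retroviral particles and lowering their infectivity. *Nutf2* encodes nuclear transport factor 2, a small protein that binds the GDP-bound form of the GTPase Ran in the cytoplasm and carries it through the nuclear pore by touching the FG repeats of nucleoporins. In the nucleus Ran is recharged with GTP, and the resulting gradient drives import by importins and export by exportins. Both proteins are made in most tissues.

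*Serinc3* (ENSMUSG00000017707) lies at chr2:163623272-163645131 on the minus strand of GRCm38 and has 10 exons in its first GENCODE M21 transcript. Its last exon, chr2:163623272-163625579, spans 2308 bases. The antisense gene *0610039K10Rik* overlaps it on the plus strand, outside the last exon, and had 12 and 15 UMIs in the libraries labelled WT and KO. *Nutf2* (ENSMUSG00000008450) lies at chr8:105860580-105879330 on the plus strand and has 5 exons, the last at chr8:105878805-105879330 with 526 bases. A single-exon copy, *Nutf2-ps1*, lies at chr19:53588168-53589068 on the minus strand. Its transcript was identical to *Nutf2-201* over 868 of 868 aligned bases, positions 81 to 948 of 948, which take in the whole annotated 3′ end. Reads from that stretch could come from either gene, so the *Nutf2* count is uncertain in a way the *Serinc3* count is not. *Nutf2-ps1* itself had 32 UMIs in each library.

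The promoters are shown because both genes were higher in the labelled-KO library in every cluster of cells, as given below, so that shared letters upstream of the starts could be looked for. Each sequence is the 250 bases before a RefSeq transcription start on the gene's own strand (GRCm38.p6), chr2:163645144-163645393 for *Serinc3* and chr8:105860283-105860532 for *Nutf2*, with capitals marking motif matches.
Serinc3: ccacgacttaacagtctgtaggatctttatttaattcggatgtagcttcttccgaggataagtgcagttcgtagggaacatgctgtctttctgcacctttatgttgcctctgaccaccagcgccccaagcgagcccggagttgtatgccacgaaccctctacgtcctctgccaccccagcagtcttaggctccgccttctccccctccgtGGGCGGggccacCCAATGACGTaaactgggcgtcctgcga
Nutf2: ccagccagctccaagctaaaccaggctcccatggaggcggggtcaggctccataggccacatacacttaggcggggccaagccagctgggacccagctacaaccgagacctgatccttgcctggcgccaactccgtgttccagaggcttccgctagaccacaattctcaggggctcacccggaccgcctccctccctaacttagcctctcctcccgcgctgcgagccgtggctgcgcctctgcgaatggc

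The motifs searched on both strands were the GC box GGGCGG, the CCAAT box CCAAT, the cyclic AMP response element core TGACGT, the ETS core CCGGAA and the E-box CACGTG. The *Serinc3* window held a GC box 40 to 35 bases before the start, a CCAAT box 28 to 24 bases before it and a response element core 24 to 19 bases before it, the last 2 sharing 1 base. Of 32851 mouse promoter windows of the same length, 32.7% held a GC box, 33.8% a CCAAT box and 6.47% the response element core. None of these letters, nor the ETS core (12.0% of windows) or the E-box (6.02%), was in the *Nutf2* window shown, so no searched motif was held by both windows. *Nutf2* had 2 RefSeq windows, of which only 1 is given here.

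*Serinc3* had 2470 UMIs in the labelled-WT library and 4256 in the labelled-KO library. Scaled to library size this was 212 CPM (203 to 220.2) against 537 CPM (521 to 554), a log2 ratio of 1.34 (1.27 to 1.42) or 2.54-fold. The intervals lie far apart, but they hold no spread between leukemias. *Nutf2* had 1243 and 1743 UMIs, 107 CPM (101 to 113) against 220.1 CPM (209.857 to 230.648). Its log2 ratio was 1.05 (0.94 to 1.15), or 2.07-fold. Among robust genes 0.183% were 2-fold or more higher in the labelled-KO library, a share that holds both members because the choice was made on this ratio. Between them in rank stood *Gm8797* (log2 ratio 1.24) and *Hmgn1*, a nucleosome-binding protein (1.23); *Cks1brt* (1.01) followed *Nutf2*, and *Serpine2*, a secreted protease inhibitor, was the first below 2-fold (0.96).

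**Figure D1:**
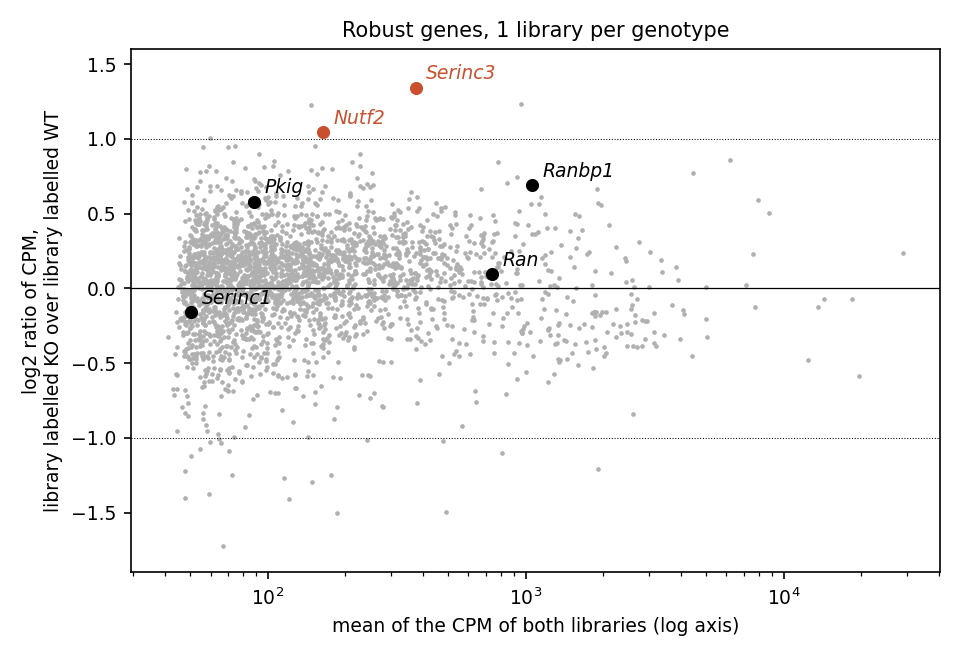
Each grey point is 1 of the 2737 robust genes; the horizontal axis is the mean CPM of both libraries on a log scale and the vertical axis the log2 ratio of CPM, labelled-KO over labelled-WT, with dotted lines at 2-fold. Serinc3 (1.34) and Nutf2 (1.05) sit above the upper line, while Ranbp1 (0.69), Pkig (0.58), Ran (0.09) and Serinc1 (-0.16) sit below it.

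To see which cells carried the difference, kept cells of both libraries were divided together into 12 clusters, with *Serinc3* and *Nutf2* left out. By their marker genes 6 clusters could be named: granulocyte-like (cluster 2, led by *Ltf*, *Ly6g* and *Mmp9*), mitosis-like (4, *Ube2c*, *Cenpf*), S phase-like (5, *Ccne2*, *Rrm2*, with the granule gene *Camp* also leading), macrophage-like (6, *Apoe*, *Ccl6*, with 8 of 9 monocyte markers also raised), primary granule-like (7, *Mpo*, *Elane*) and stem and progenitor-like (8, *Sox4*, *Cd34*). The others are called by number and leading genes: 1 by *Gal* and *Cdkn1c*, 3 by *Mcpt8*, *Fabp5* and the serine synthesis enzymes *Phgdh* and *Psat1*, 9 by the mitotic genes *Ska1* and *Kif2c* with *Elane*, 10 by *S100a10* and *Irf8*, 11 by the stefins *Stfa2* and *Stfa3*, and 12 by the MHC class II genes *H2-Aa* and *Cd74*. The names of clusters 6 and 8 rest on their leading genes. Cluster 6 raised 4 of 8 macrophage markers against 8 of 9 monocyte markers, and the monocyte marker *Fn1* also led it. Cluster 8 raised 3 of 6 stem and progenitor markers, beside 3 of 9 monocyte and 3 of 8 macrophage markers. Neither name sets its cells apart from monocyte-like cells. Clusters without a name raised markers too. Cluster 3 raised 10 of 10 S phase markers, against 9 of 10 in the S phase-like cluster, and 5 of 9 monocyte markers. Cluster 9 raised 11 of 11 mitosis and 4 of 4 primary granule markers. Cluster 10 raised 9 of 9 monocyte markers, cluster 12 raised 5 of 9, and cluster 11 raised 8 of 12 granulocyte markers. Cluster 12 was made up largely of cells of the labelled-KO library, 339 against 47, so that cell state and library cannot be told apart for it.

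*Serinc3* was higher in the labelled-KO library in 12 of 12 clusters, and each interval of the log2 ratio lay above 0. Among robust genes 6.98% were higher in 12 of 12 clusters. *Serinc3* was chosen for its ratio over these same cells, which favoured such a count. The ratio was narrow in range: 10 clusters lay between 1.24 and 1.49 on the log2 scale, cluster 12 stood at 1.16, and the macrophage-like cluster had the lowest value. In that cluster *Serinc3* went from 485 CPM (436 to 538) to 791 CPM (682 to 912), a log2 ratio of 0.71 (0.44 to 0.96), an interval that does not reach the ratio over all cells. The macrophage-like cells of the labelled-WT library thus already held more *Serinc3* than the granulocyte-like cells of the labelled-KO library, at 340 CPM (282 to 406). Only 4 robust genes were 1.5-fold or more higher in all 12 clusters, 0.146%; with *Serinc3* these were *Gm8797*, *Gm9774* and the interferon-induced membrane gene *Ifitm3*, named here after their values were seen.

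The order of clusters by *Serinc3* level was much the same in both libraries. Highest was cluster 12 with its MHC class II genes, at 552 CPM (394 to 752) in the labelled-WT library and 1231 CPM (1128 to 1340) in the labelled-KO library. The macrophage-like cluster and cluster 10 came next, the latter at 379 CPM (342 to 418) and 1065 CPM (956 to 1182). Below them stood the stem and progenitor-like cluster, at 333 and 783 CPM, and cluster 3, at 262 and 673 CPM. Each of the clusters named so far in this order raised monocyte markers and no other cluster did, as seen with the levels in hand. The mitosis-like cluster held 193 and 498 CPM and cluster 9 held 167 and 408 CPM, while the other 5 clusters, granulocyte-like, primary granule-like, S phase-like, 1 and 11, lay between 98.8 and 131 CPM and between 233 and 340 CPM. Lowest was the stefin cluster 11, 5.59-fold under cluster 12 in the labelled-WT library and 5.29-fold under it in the labelled-KO library. Between neighbours in this order the intervals were apart in 2 of 11 pairs in the labelled-WT library (macrophage-like over 10, and 3 over mitosis-like) and in 4 of 11 in the labelled-KO library (10 over macrophage-like, stem and progenitor-like over 3, 3 over mitosis-like, and mitosis-like over 9). From lowest to highest cluster *Serinc3* thus spanned 2.48 and 2.40 on the log2 scale, more than it differed between the libraries within any cluster.

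*Nutf2* was also higher in the labelled-KO library in 12 of 12 clusters, although the intervals of clusters 8 and 12 took in 0. With 16 clusters it was higher in 15, the exception being a cluster with 19 UMIs in the labelled-WT library and 3 in the other. Its log2 ratio ran from 0.44 to 1.37 over the clusters, and that of *Serinc3* from 0.71 to 1.49. Which of them varied more was not tested, and *Nutf2* had fewer UMIs in all. In cluster 3, led by *Mcpt8* and the serine synthesis enzymes, it went from 187 CPM (168 to 208) to 457 CPM (422 to 494), a log2 ratio of 1.28 (1.09 to 1.48). The stem and progenitor-like cluster held 128 CPM (97.7 to 165) in the labelled-WT library and 174 CPM (144 to 209) in the other, a log2 ratio of 0.44 (-0.02 to 0.92), so that a difference there was not detectable at this depth. These 2 intervals do not overlap. Between them lay the S phase-like cluster at 0.68, cluster 1 at 0.72, cluster 9 at 0.80, the macrophage-like and primary granule-like clusters at 0.87 and 0.88, the mitosis-like cluster at 0.93, and clusters 11 and 10 at 0.97 and 0.98. The granulocyte-like cluster had a log2 ratio of 1.37 (0.43 to 2.28), resting on 24 and 20 UMIs, and cluster 12 one of 1.36 with 4 UMIs in the labelled-WT library.

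By level *Nutf2* ranked the cell states in another order. Cluster 3 was highest in both libraries, followed by cluster 9 with its mitotic genes, at 149 CPM (129 to 171) and 259 CPM (227 to 293). The granulocyte-like cluster was lowest in both, at 21.6 CPM (13.8 to 32.2) and 55.7 CPM (34.0 to 86.1), which is 8.67-fold and 8.20-fold under cluster 3. Next to the granulocyte-like cells at the bottom stood the stefin cluster 11, at 52.1 and 102 CPM. The 8 clusters in between lay from 55.2 to 128 CPM in the labelled-WT library and from 104 to 206 CPM in the labelled-KO library. Only 1 of 11 neighbouring pairs had intervals apart in each library, 11 over granulocyte-like in the labelled-WT library and 3 over 9 in the labelled-KO library.

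**Figure D2:**
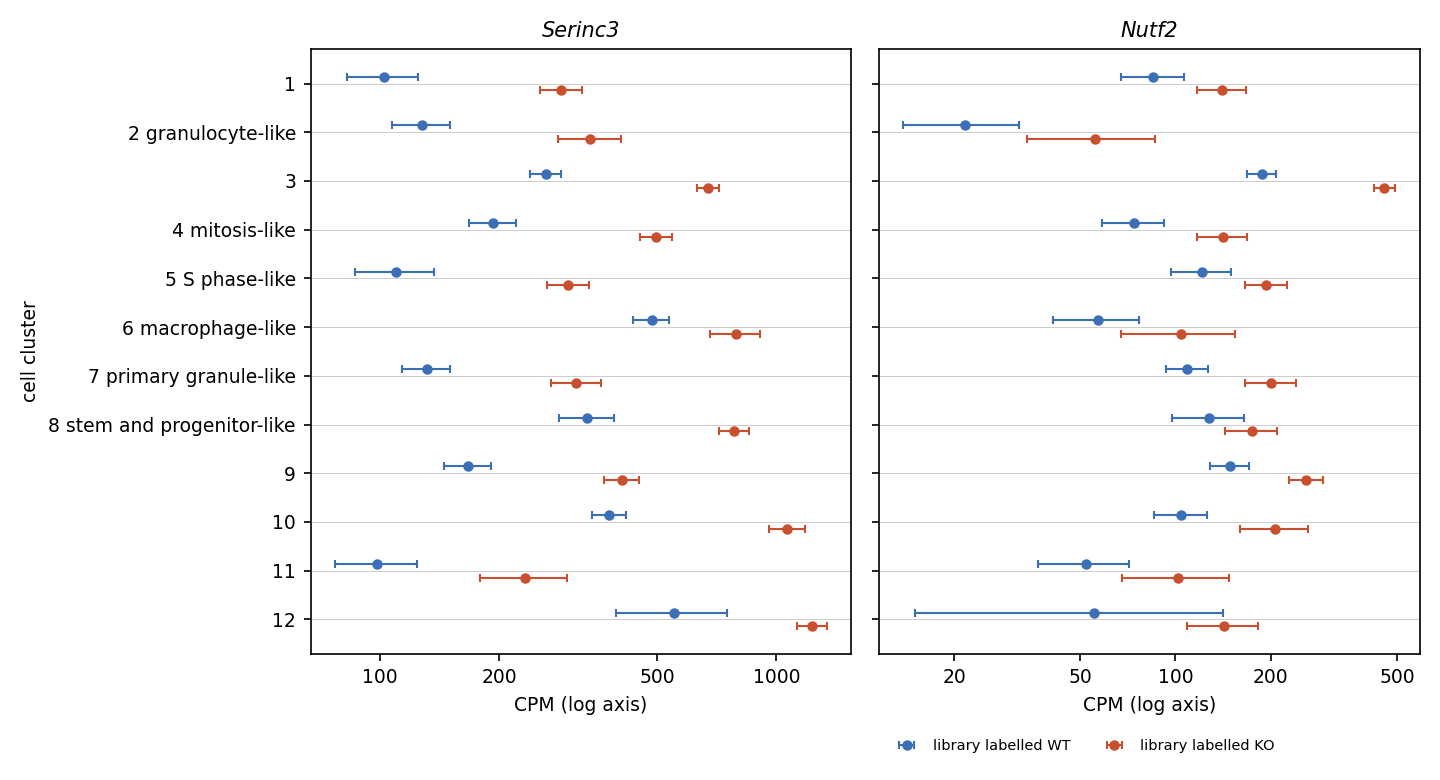
CPM of Serinc3 (left) and Nutf2 (right) on log axes in each of the 12 cell clusters, with exact Poisson 95% intervals; blue is the labelled-WT library and red the labelled-KO library. The red point lies to the right of the blue point in every cluster for both genes, closest together for Serinc3 in cluster 6 and for Nutf2 in cluster 8.

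As a description over the 12 clusters, which share libraries, depth and cell cycle, log2(CPM + 1) of *Serinc3* in the labelled-WT library had a Pearson r of 0.97 with its own values in the labelled-KO library, and *Nutf2* one of 0.94. Between *Serinc3* and *Nutf2* the r was 0.08 in the labelled-WT library and 0.23 in the labelled-KO library. The robust genes most like *Serinc3*, ranked by the lower r of the 2 libraries, were *Tmsb10*, which encodes an actin-binding thymosin (r 0.90 and 0.92), *Ctss*, the lysosomal protease cathepsin S (0.90 and 0.89), *Txndc5*, a disulfide isomerase of the endoplasmic reticulum (0.89 and 0.93), *S100a10* (0.92 and 0.89) and *Ms4a6c* (0.90 and 0.89). Their own log2 ratios between libraries ranged from -0.50 for *Tmsb10* to 0.52 for *Ms4a6c*, so none of these 5 genes differed between libraries as *Serinc3* did. Most like *Nutf2* were *Erh* (r 0.97 and 0.98), *Set*, a histone chaperone (0.98 and 0.97), *Cct8*, a chaperonin subunit (0.97 and 0.97), *Hnrnpa1*, an RNA-binding protein (0.96 and 0.97), and *Pa2g4* (0.97 and 0.95). Of these *Erh* had the highest log2 ratio between libraries, 0.45 (643 against 881 CPM), and the other 4 lay between -0.11 and 0.07.

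Depth per cell differed between the libraries, so levels were also set side by side in cells of like depth. *Serinc3* was higher in the labelled-KO library in each of 7 bins of total UMIs, with log2 ratios from 1.06 (0.86 to 1.27) in cells of 1500 to 2000 UMIs to 2.13 (1.39 to 2.96) in those under 1000. In cells under 1000 UMIs it stood at 256 CPM (147 to 416) in the labelled-WT library and at 1119 CPM (970 to 1285) in the labelled-KO library, the latter being the highest of its 7 bins. Between 1000 and 1500 UMIs the levels were 314 CPM (273 to 359), the highest bin of the labelled-WT library, and 677 CPM (630 to 725), and in cells of 6000 UMIs or more they were 188 and 482 CPM. *Nutf2* was higher in deep than in shallow cells of both libraries. It stood at 56.8 CPM (40.2 to 77.9) and 125 CPM (105 to 147) in cells of 1000 to 1500 UMIs, and at 188 CPM (168 to 211) and 489 CPM (435 to 548) in cells of 6000 or more. The *Nutf2* ratio was above 0 in all 7 bins, from 0.70 (-1.14 to 3.14) in the cells under 1000 UMIs, where the labelled-WT library had 3 UMIs, to 1.67 (1.23 to 2.13) between 1500 and 2000. With cells of both libraries drawn to the same distribution of total UMIs, the log2 ratio of *Nutf2* was 1.40 in place of 1.05, and that of *Serinc3* was 1.22 in place of 1.34.

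**Figure D3:**
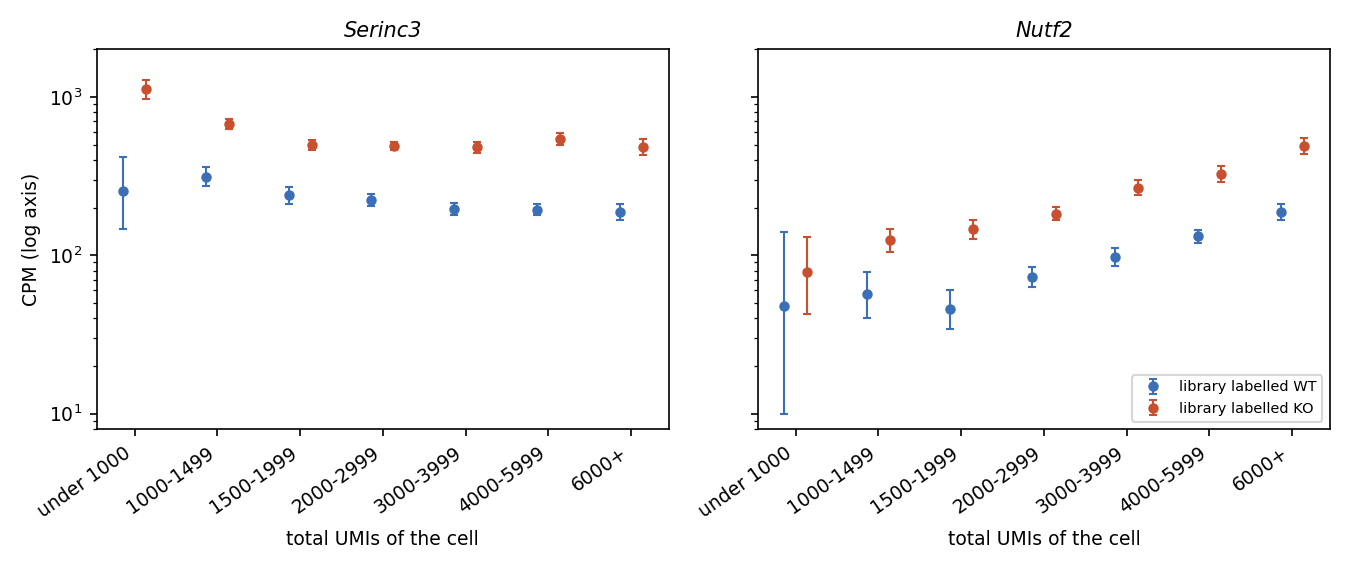
CPM on a log axis in bins of the total UMIs of the cell, for Serinc3 (left) and Nutf2 (right), with exact Poisson 95% intervals; blue is the labelled-WT library and red the labelled-KO library. Red lies above blue in every bin, and Nutf2 is higher in the last bin (188 and 489 CPM) than in the second (56.8 and 125 CPM), whereas Serinc3 is lower (188 and 482 CPM against 314 and 677 CPM).

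A difference in summed counts can come from a few cells with many transcripts or from many cells with one more. At their own depth, 1579 cells (40.8%, 39.3 to 42.4) of the labelled-WT library and 2059 cells (58.1%, 56.4 to 59.7) of the labelled-KO library held a *Serinc3* UMI, and no cell held more than 7 and 15. For *Nutf2* it was 907 cells (23.5%, 22.1 to 24.8) and 1068 cells (30.1%, 28.6 to 31.7), with at most 9 and 10 in a cell. No cluster is known to lack either gene, so these shares have no background level from free RNA to be read against. In the lowest clusters, *Serinc3* UMIs were in 18.6% and 35.3% of cells (cluster 11, median depth 2049 and 1833) and *Nutf2* UMIs in 4.20% and 9.05% (granulocyte-like, median depth 1802 and 1488).

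Each cell was then thinned to 1000 UMIs, which left out 66 cells of the labelled-WT library and 194 of the labelled-KO library. *Serinc3* was then found in 19.5% (18.3 to 20.8) of 3800 cells and in 38.1% (36.4 to 39.7) of 3351 cells. *Nutf2* was found in 8.34% (7.48 to 9.27) and in 15.5% (14.3 to 16.8). Both shares were nearly doubled. With a mean below 1 UMI per cell, such shares follow the mean level and do not by themselves tell more cells from more transcripts per cell, so the whole distribution was set beside a Poisson spread. At the same mean, 79.3% and 57.7% of cells would lack *Serinc3*, and 80.5% and 61.9% did. Cells with 3 or more *Serinc3* UMIs made up 0.395% against a Poisson share of 0.175% in the labelled-WT library, and 3.43% against 1.84% in the labelled-KO library. For *Nutf2* the shares without a UMI were 91.7% against 91.4% and 84.5% against 83.8%.

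The variance over the mean, which is 1 for a Poisson spread, was 1.14 and 1.29 for *Serinc3* and 1.05 and 1.07 for *Nutf2* in the libraries labelled WT and KO. The median over robust genes was 1.16 and 1.27. Among the 100 robust genes nearest in mean, 76 and 84 had a higher ratio than *Serinc3*, and 96 and 96 a higher one than *Nutf2*. Both genes were therefore spread over cells at least as evenly as most genes of like abundance, in both libraries. The 10 cells with most *Serinc3* UMIs held 3.74% and 2.77% of its thinned UMIs, and for *Nutf2* they held 6.18% and 4.06%. Without the 10 cells of each library with most UMIs of the gene, the log2 ratios were 1.35 and 1.04.

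**Figure D4:**
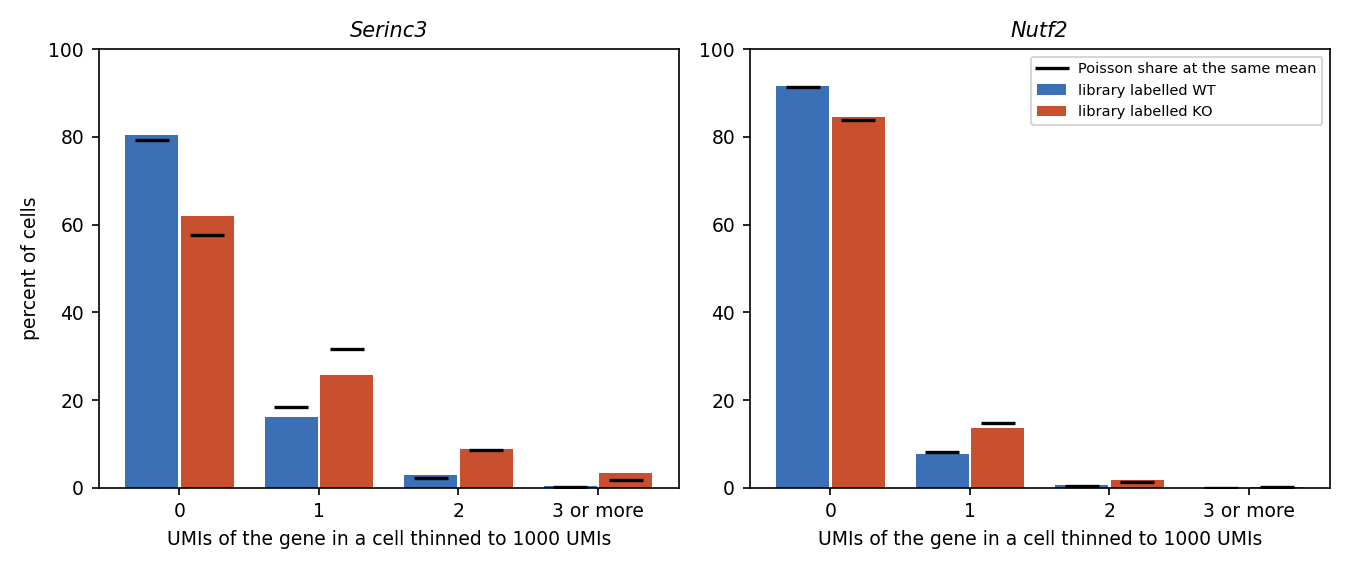
Percent of cells with 0, 1, 2 and 3 or more UMIs of Serinc3 (left) and Nutf2 (right) after thinning each cell to 1000 UMIs; bars are the libraries labelled WT (blue, 3800 cells) and KO (red, 3351 cells) and black dashes the Poisson share at the same mean. The bars at 0 stand at 80.5% and 61.9% for Serinc3 and at 91.7% and 84.5% for Nutf2, close to the dashes, the widest gap being that of Serinc3 in the labelled-KO library (61.9% against 57.7%).

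The 2 transcripts were found together about as often as their separate shares predict. After thinning, 55 cells of the labelled-WT library held both against 61.8 at independence, a ratio of 0.89 (0.67 to 1.16), and 216 cells of the labelled-KO library held both against 198, a ratio of 1.09 (0.95 to 1.24). Summing the number at independence over the 12 clusters gave ratios of 0.85 and 1.03. With cells thinned to 1500 UMIs the ratios were 1.09 (0.90 to 1.31) and 1.01 (0.89 to 1.13), so the value of the labelled-WT library lay on the other side of 1 and each of these intervals took in 1. A link between them cell by cell was not detectable at this depth.

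Because leukemias are not labelled within the pools, transcripts of the sex chromosomes were used to part their cells by donor sex as far as UMIs allow. *Xist* UMIs without any UMI of the Y-linked genes *Ddx3y*, *Eif2s3y*, *Kdm5d* and *Uty* were found in 1620 cells of the labelled-WT library and 446 of the labelled-KO library; Y-linked UMIs without *Xist* were found in 94 and 562. *Serinc3* stood at 220 CPM and 620 CPM in the *Xist* cells, a log2 ratio of 1.49 (1.35 to 1.63). In the Y-linked cells it stood at 164 CPM (126 to 209) and 565 CPM (529 to 604), and the log2 ratio was 1.79 (1.42 to 2.18). The difference was thus present on either side of the split. *Nutf2* went from 118 to 220 CPM in the *Xist* cells, a log2 ratio of 0.89 (0.67 to 1.11), and from 171 to 269 CPM in the Y-linked cells, a log2 ratio of 0.65 (0.28 to 1.05). It was thereby also higher on either side. Of robust genes 2.67% were 1.5-fold or more higher on both sides. Both members were among them, but they were chosen on the ratio over these same cells, which favoured it, so this adds no support. Cells with neither kind of UMI, 2142 and 2523, had log2 ratios of 1.32 (1.22 to 1.42) for *Serinc3* and 1.19 (1.04 to 1.35) for *Nutf2*.

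Within a library the *Xist* and Y-linked split moved *Serinc3* less than the library did. For *Nutf2* the interval of the split in the labelled-WT library overlapped those of the library ratio on either side. Y-linked over *Xist* cells, the log2 ratio of *Serinc3* was -0.43 (-0.81 to -0.06) in the labelled-WT library and -0.13 (-0.28 to 0.02) in the labelled-KO library, and that of *Nutf2* was 0.54 (0.15 to 0.90) and 0.29 (0.06 to 0.53). *Kat2a* UMIs divided the cells in another way, with 124 and 469 cells that held one. *Serinc3* was slightly lower in those cells than in the rest, by a log2 ratio of -0.29 (-0.58 to -0.01) and -0.15 (-0.27 to -0.04). *Nutf2* was higher in them, by 0.84 (0.54 to 1.12) and 0.65 (0.50 to 0.81). Cells with a *Kat2a* UMI were also deeper, with a median of 4473.5 against 2545.5 UMIs and of 2762 against 1807, and *Nutf2* was higher in deep cells; the part of depth in this was not tested. With or without a *Kat2a* UMI, both genes were higher in the labelled-KO library. *Serinc3* went from 175 to 493 and from 214 to 548 CPM, and *Nutf2* from 183 to 312 and from 102 to 198 CPM. Between the libraries the log2 ratio of *Nutf2* was 0.77 (0.47 to 1.08) with a *Kat2a* UMI and 0.95 (0.84 to 1.07) without. These ratios were of like size to its ratios by *Kat2a* UMI within a library.

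**Figure D5:**
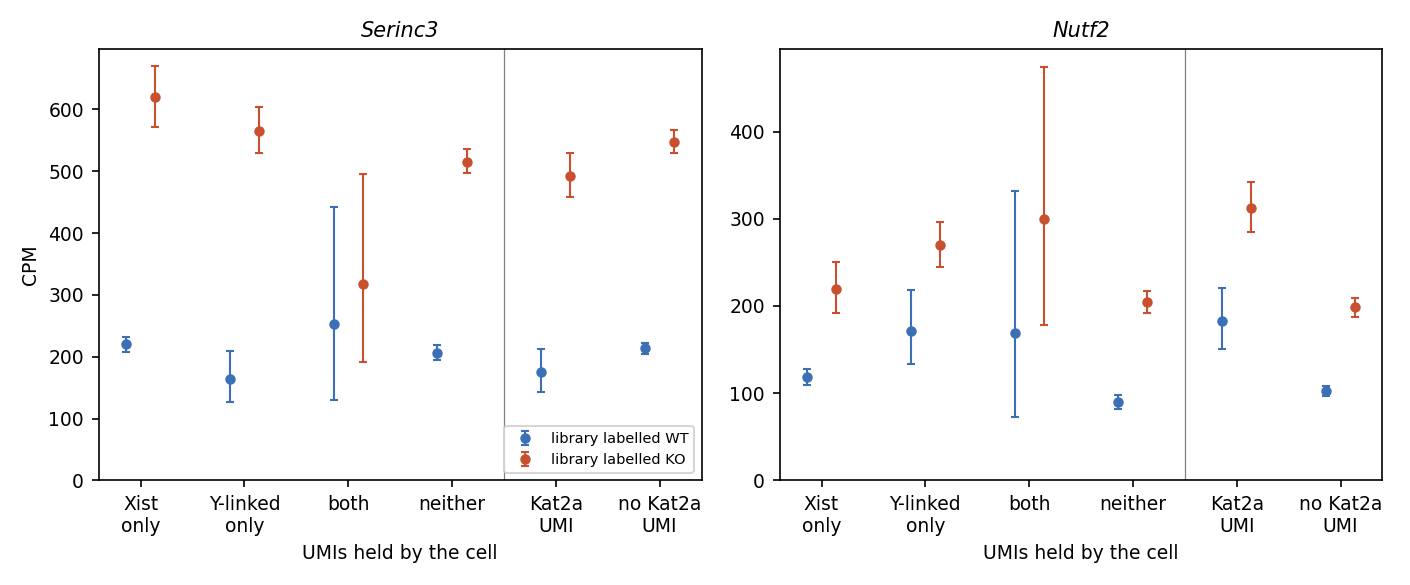
CPM of Serinc3 (left) and Nutf2 (right) in cells holding Xist UMIs only, Y-linked UMIs only, both or neither, and, right of the grey line, in cells with and without a Kat2a UMI; bars are exact Poisson 95% intervals, blue the labelled-WT library and red the labelled-KO library. Red lies above blue in each class, and the class with both kinds of UMI, 10 and 14 cells, has the widest intervals.

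Markers listed for other cell types also differed between the libraries. Summed over their lists, 7 of 7 erythroid markers stood at 208 and 550 CPM in the libraries labelled WT and KO, 4 of 4 megakaryocyte markers at 20.8 and 135 CPM, 4 of 5 basophil and mast cell markers at 94.7 and 197 CPM, 5 of 6 T and NK cell markers at 197 and 319 CPM, B cell markers at 54.3 and 79.0 CPM, and 3 of 3 eosinophil markers at 66.1 and 35.7 CPM. The basophil protease gene *Prss34* was at 0 in both. Cells holding any of these UMIs made up 36.4% and 44.7%. The YFP reporter marks the retrovirus and not a lineage, and some of these markers led clusters of the sorted cells. *Mcpt8*, of the basophil list, was among the leading genes of cluster 3, and *Nkg7*, of the T and NK cell list, among those of cluster 7. A UMI of *Mcpt8* or *Nkg7* therefore does not mark a cell as foreign to the leukemia. No cluster raised an erythroid or megakaryocyte marker, and where UMIs of those lists came from was not tested. Without the cells holding a UMI of any of the lists, the log2 ratio of *Serinc3* was 1.35 (1.25 to 1.45). That of *Nutf2* was 0.93 (0.77 to 1.10), so that both stayed above 0 in the remaining cells.

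*Serinc1* was the only other serine incorporator in the robust set, at 53.4 CPM (49.3 to 57.7) and 47.9 CPM (43.2 to 52.9). Its log2 ratio was -0.16 (-0.35 to 0.03), and it was higher in the labelled-KO library in 3 of 12 clusters. *Serinc2* had 7 and 7 UMIs, *Serinc4* 3 and 1, and *Serinc5* 7 and 3, too few to compare. Of 12 genes that make phosphatidylserine or sphingolipids from serine, 4 were robust, 2 higher and 2 lower, and none reached 1.5-fold; across robust genes 3.54% were 1.5-fold or more higher and 3.43% as much lower. *Sptlc2*, a subunit of serine palmitoyltransferase, had a log2 ratio of -0.49 (-0.66 to -0.31), and *Sptssa*, a small activating subunit of the same enzyme, one of 0.35 (0.29 to 0.41). The regulators *Ormdl1* and *Ormdl2* had -0.03 and 0.20.

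The genes that act with NTF2 varied in the same comparison. *Ran*, its cargo, was close in the libraries, at 718 and 767 CPM (log2 ratio 0.09, 0.05 to 0.14). *Ranbp1*, which binds RanGTP in the cytoplasm and helps its hydrolysis, stood at 809 and 1307 CPM, a log2 ratio of 0.69 (0.65 to 0.73), and was higher in the labelled-KO library in 12 of 12 clusters. No other gene of the 8 listed for the Ran cycle was robust apart from *Nutf2*. Of 5 robust genes with an NTF2-like fold, *Nutf2* alone was past 1.5-fold: the mRNA export factors *Nxt1* and *Nxf1* had log2 ratios of 0.26 and 0.41, and the stress granule proteins *G3bp1* and *G3bp2* had 0.003 and -0.21. Importin *Kpna2* was the 1 robust gene of 16 importins, at 112 and 112 CPM. None of 7 exportins was robust, and of the FG nucleoporins only *Nup62* was, with a log2 ratio of 0.41 (0.23 to 0.60).

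Genes beside the members on the chromosome were also examined. The nearest robust genes to *Serinc3* were *Pkig*, an inhibitor of protein kinase A, 13.3 kb away, and *Oser1*, 199 kb away on the other side. *Pkig* stood at 71.0 and 106 CPM, a log2 ratio of 0.58, and was higher in the labelled-KO library in 12 of 12 clusters; *Oser1* stood at 103 and 156 CPM, a log2 ratio of 0.60, higher in 11 of 12. The 1 further robust gene within 500 kb, *Ywhab*, had -0.12, and the median over 205 robust genes of chromosome 2 was 0.10. *Pkig* and *Oser1* thus stood above the median of their chromosome and *Ywhab* below it, and *Serinc3* stood well above all of them. Beside *Nutf2*, the proteasome subunit *Psmb10*, 56.4 kb away, had a log2 ratio of 0.29 and the telomere protein *Acd*, 159 kb away, one of 0.53, with *Atp6v0d1* at 0.01 and a median of 0.10 over 158 robust genes of chromosome 8.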

How the data were processed

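10x Genomics 3′ libraries of 2 genotype pools were analysed, 1 per group. The authors processed reads with Cell Ranger (build mm10) and deposited 1 matrix of UMI counts, not normalized. The submitters' notes give version 1.3.1, whereas the methods of the paper name another version. Barcodes ending in 1 were taken as the library labelled KO and those ending in 2 as that labelled WT. This rests on the study's code and the rule set for this work, since the labels' Cre status names a genotype and not a suffix. Cells with 500 or more genes were kept. CPM is summed UMIs per 1e+06 UMIs. Intervals were exact: Poisson for CPM, Clopper-Pearson for shares and conditional binomial for ratios. They cover counting error only, and the ratio code was tested on simulated data. Cells were clustered by k-means (12 clusters, 20 principal components, 784 variable genes; scikit-learn 1.9.0, scanpy 1.11.5, Python 3.11.15) without the members. A cluster was named where at least 3 markers of a class were raised 1.5-fold and at least 2 were among its 10 leading genes, with no other class having as many leading; this rule was set with the data in hand. Scrublet marked 5 of 8309 cells and so was not used to remove doublets. Positions are from GENCODE M21 (GRCm38), promoters from RefSeq.

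The members and lists were chosen with earlier results of these data known. Named genes were the members, *Kat2a*, sex-linked genes, robust list genes (all where 6 or fewer), the 5 most alike genes per member, nearest robust neighbours, and genes named for *Serinc* or *Nutf2*. Alternatives tried were other limits on cells, thinning, depth matching, scalings, numbers of clusters, equal cluster weights and left-out cells.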

Additional observations from a re-analysis of the deposited data

Results flagged for a closer look

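Cells with fewer than 500 detected genes, which the report left out other than in the alternative that took every deposited cell, held *Serinc3* at 505.142 CPM (453 to 562) in 695 cells of the library labelled KO, above the 143 CPM (98.1 to 202) in 203 cells of the library labelled WT, which served as the control level. The log2 ratio was 1.82 (1.29 to 2.39). In the same cells *Nutf2* stood at 67.7 CPM (49.3 to 90.5) and 35.9 CPM (15.5 to 70.7), with a log2 ratio of 0.92 (-0.18 to 2.21) that rests on 45 and 8 UMIs. The counts cover these libraries only, and a cause was not tested.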

How the results depend on the processing

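No paired analysis was possible because each genotype gave a single library and no test was made. Of 58 alternative values, none turned the sign of a difference between the libraries over all cells or over the *Xist* and Y-linked cells; 44 stayed within the counting interval or 1.5 times of the reported value, and 14 moved further. The co-detection ratio in the library labelled WT crossed 1, from 0.89 to 1.09 at 1500 UMIs, and both intervals took in 1. The log2 ratio of *Serinc3* (1.34) was 1.24 with cells thinned to 1000 UMIs, 1.22 with cells matched on total UMIs, 1.27 with median-of-ratios scaling and 1.23 with clusters weighted equally. That of *Nutf2* (1.05) was 1.27 in cells with 1000 or more genes, 1.40 with matched cells, 0.93 with clusters weighted equally and 0.93 without cells holding markers of other cell types. The difference in the share of thinned cells with a *Nutf2* UMI (7.21 percentage points) was 12.97 at 1500 UMIs and 11.5 in cells with 1000 or more genes, and its log2 ratio of variance over mean (0.030) was 0.075 at 1500 UMIs and 0.053 without the 10 cells of each library with most *Nutf2* UMIs. With 16 clusters, *Nutf2* was higher in the library labelled KO in 15 of 16, and its log2 span over clusters in that library was 4.81 in place of 3.04, since the lowest cluster, the 1 exception, held 3 UMIs there (17.2 against 23.1 CPM, a log2 ratio of -0.43, -2.83 to 1.34). Counting 2 or more UMIs in the *Xist* split, chosen like the removal of marker-holding cells after seeing the data, gave *Serinc3* a log2 ratio of 1.302 in place of 1.49. The cause of these shifts was not tested. Scaling by median of ratios shifts all log2 ratios by the same amount, so the ranks of both members among the robust genes stayed the same. With 1 library per genotype, the spread between leukemias is unknown, and *Nutf2* UMIs in clusters 2, 8 and 12 limit what can be said there.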
